A study of Homo sapiens with 9 samples.

Results

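The core regions are the stretches of the genome where HIF-1α was called in every hypoxia library of a chromatin immunoprecipitation and sequencing (ChIP-seq) study of SK-N-BE(2) neuroblastoma cells. Intervals of the 6 deposited peak lists on chromosomes 1 to 22 and X that shared at least 1 bp were joined, and a region was kept if it held an interval of all 3 hypoxia lists. This gave 1079 core regions among the 9376 that any hypoxia list called (11.5%, exact 95% interval 10.9% to 12.2%) and 9397 regions in all. The members were chosen by the hypoxia calls, so the width, fold and reads of hypoxia intervals given here are descriptions without a test. Exact (Clopper-Pearson) intervals of shares reflect only counting error, as if regions were independent.

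SK-N-BE(2) is an established human line with amplified MYCN. Cells grown in RPMI 1640 with 10% FBS were kept for 48 hours at 1% oxygen (hypoxia, 3 HIF-1α libraries) or 21% oxygen (normoxia, 3 HIF-1α libraries), and 3 input libraries came from 21% oxygen. No input from 1% oxygen was used here, and the labels name no separate cultures behind the libraries of a group. The spread between libraries may therefore be technical. Peak lists hold no expression values, so the identity of the line was not checked against marker genes. Positions are given 1-based, on build hg19.

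HIF-1α is the subunit of the HIF-1 transcription factor whose level follows oxygen. In oxygenated cells, prolyl hydroxylases mark it and the VHL ubiquitin ligase sends it to the proteasome. In low oxygen it accumulates, pairs with ARNT and binds short hypoxia response elements in promoters and enhancers, many of them near genes of glycolysis, blood vessel growth and oxygen sensing. A peak list gives each bound stretch as an interval and, inside it, a summit where the pile of sequenced fragments is highest. The summit is the best estimate of where the protein sat, and an interval can hold several.

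The 3 hypoxia lists were not alike. Hypoxia 1, 2 and 3 held 1392, 5827 and 7605 intervals on the chromosomes used, and the shortest interval, which MACS2 by default sets to its fragment extension, was 48, 155 and 167 bp. The normoxia lists held 70, 32 and 109 intervals with a shortest length of 46, 47 and 47 bp. Library depth was similar, with 5.31 to 6.62 background reads per kb for the hypoxia and 6.02 to 6.69 for the normoxia libraries. Hypoxia 1 therefore resembled the normoxia lists in extension and set the size of the core: without it, 4067 regions were called in both remaining hypoxia lists, against 1126 without hypoxia 2 and 1090 without hypoxia 3.

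The core held most of what hypoxia 1 called and the top of what the longer lists called. It took in 1225 of the 1392 hypoxia 1 intervals (88%, exact 95% interval 86.2% to 89.7%), 1103 of the 5827 hypoxia 2 intervals (18.9%, 17.9% to 20%) and 1092 of the 7605 hypoxia 3 intervals (14.4%, 13.6% to 15.2%). The authors' fold is the summit reads plus 1 over the local background plus 1. The added 1 weighs more where the background per extension is small, as in hypoxia 1 and the normoxia lists, so folds of short and long extension are not on 1 scale and are read within a list. Ordered by this fold, the first 100 intervals of each hypoxia list were all in core regions. The first interval outside the core stood at place 144 in hypoxia 1, 158 in hypoxia 2 and 168 in hypoxia 3. Of the first 1000, 936, 684 and 721 were in the core.

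Core intervals had more enrichment than the other intervals of hypoxia 2 and hypoxia 3. In hypoxia 2 the median fold was 14.1 (quartiles 9.13 and 24.4) in the core and 6.05 (4.99 and 7.68) elsewhere. In hypoxia 3 it was 16.8 (10.5 and 26.5) in the core and 5.83 (4.77 and 7.42) elsewhere. The reads behind a core summit had a median of 35 in hypoxia 2 and 40 in hypoxia 3, against 13 outside the core in each. Hypoxia 1 set its core apart less: the median fold was 6.51 (5.31 and 8.75) against 4.55 (2.84 and 5.98), and the median was 9 reads in both. Core summits stood on the fewest reads in hypoxia 1, where the lower quartile was 7 reads. Reads at a summit are counted over the fragment extension, so they too are read within a list. The genome-wide background was 0.318, 0.920 and 0.886 reads in hypoxia 1, 2 and 3.

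**Figure D1:**
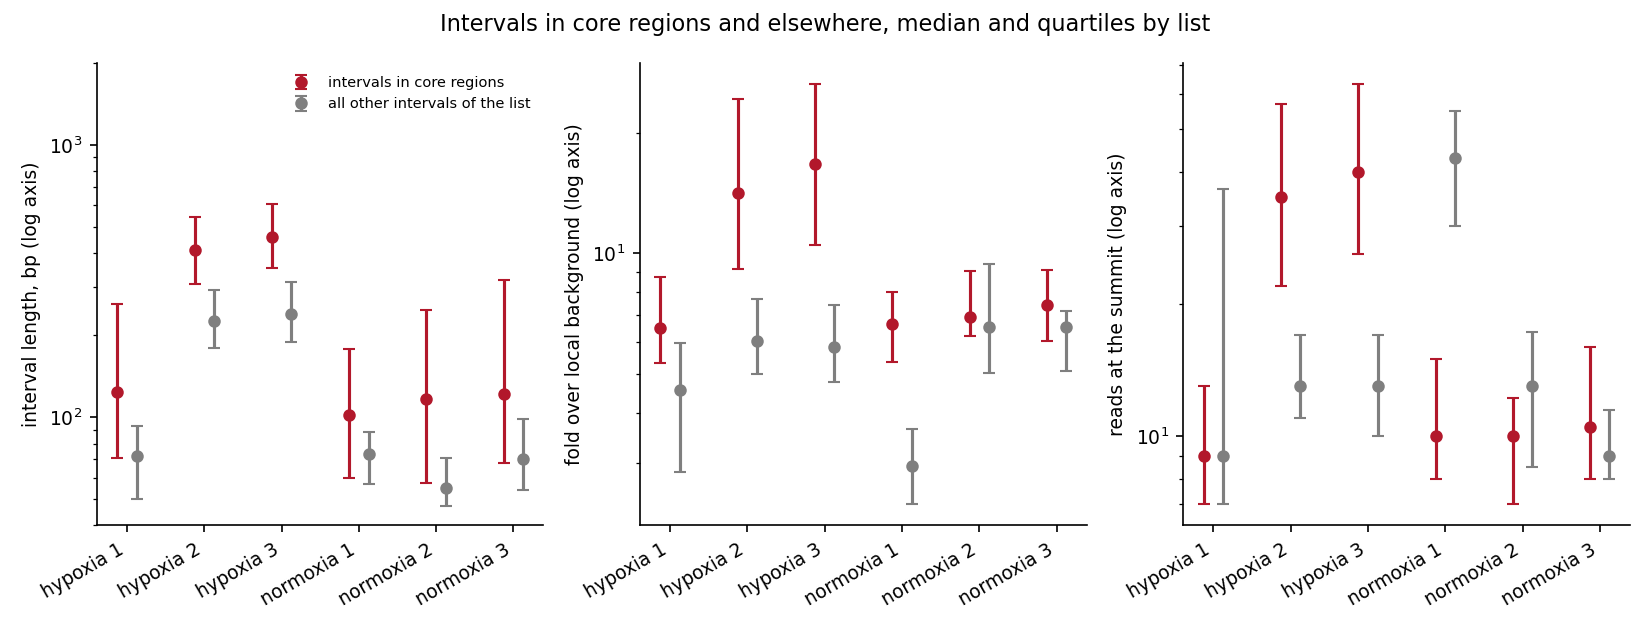
Interval length in bp, fold over local background and reads at the summit (3 panels, log axes) for each list, with points at the median and bars from the lower to the upper quartile, for intervals in core regions (red) and all other intervals of the list (grey). Core medians lie at 14.1 and 16.8 fold in hypoxia 2 and 3 and at 6.51 fold in hypoxia 1. The normoxia core medians, 6.66 to 7.44 fold, cover only core regions that the normoxia list called. Over the 76 core regions with any normoxia call, the hypoxia 1 median was 13.3.

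The first 10 core regions were picked by their mean fold rank over the 3 hypoxia lists, so high values in each follow from the choice. At the region ranked first by mean fold rank, chr6:44050244-44051251, the summits stood on 50, 255 and 253 reads in hypoxia 1, 2 and 3, and the bases called by all 3 lists ran to 685 bp. At the next, chr11:1999864-2001295, they stood on 48, 204 and 257 reads, with 953 bases in all 3 lists, and normoxia 3 also had a call there, on 11 reads. At chr10:120903920-120904805 the hypoxia 1, 2 and 3 folds were 23.5, 97.7 and 102, without any normoxia call. At chr1:201760521-201761503 they were 23.9, 77.1 and 119, again without one. The first 10 regions were 865 to 1432 bp wide, so all of them were wider than the upper quartile of the core (656 bp).

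Order by fold was shared between hypoxia lists, most of all between the long ones. Across the 1079 core regions Spearman's rho of fold was 0.81 between hypoxia 2 and hypoxia 3, 0.61 between hypoxia 1 and hypoxia 2 and 0.61 between hypoxia 1 and hypoxia 3. In the 2989 regions that hypoxia 2 and hypoxia 3 called without hypoxia 1, rho between them was 0.45. Fold spanned a narrower range outside the core, so this rho is not directly comparable with 0.81. Quartiles in hypoxia 2 were 4.99 and 7.68 over all intervals outside the core, against 9.13 and 24.4 inside. The rho values are across regions, which are not independent replicates, and hypoxia 2 and hypoxia 3 also share a long extension.

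Members near the edge of the rule rested on few reads in at least 1 list. Just inside, chr6:117001998-117002271 had folds of 4.47, 8.35 and 3.56 on 5, 17 and 7 reads in hypoxia 1, 2 and 3. At chr22:39989247-39989497 the folds were 5.39, 9.37 and 3.71 on 7, 17 and 6 reads. Another such region, chr4:174440312-174440598, was below the core median in all 3 lists, with folds of 5.27, 4.90 and 3.60 on 7, 10 and 8 reads. Just outside, chr19:940748-941607 had folds of 32.3 and 33.5 on 61 and 66 reads in hypoxia 2 and 3 and no interval in hypoxia 1, and chr22:47044963-47045457 had 29.2 and 24.4 on 55 and 45 reads. Regions that miss the core can therefore carry more reads in hypoxia 2 and 3 than most regions inside it.

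Core regions were mostly between 300 and 1000 bp wide. The median width was 502 bp (quartiles 394 and 656), from 217 to 1855 bp, and together they covered 595 kb. Of the 1079, 66 were under 300 bp, 465 were 300 to under 500 bp, 492 were 500 to under 1000 bp and 56 were at least 1000 bp. Regions called in exactly 2 hypoxia lists had a median width of 334 bp (273 and 418), and those of exactly 1 list 201 bp (169 and 252). Joining more intervals can only widen a region, so this order is partly built into the rule.

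Most core regions were simple in structure. In 923 each hypoxia list contributed a single interval. More than 1 interval came from hypoxia 1 in 129 regions, from hypoxia 2 in 24 and from hypoxia 3 in 13. The edges were those of a hypoxia 3 interval at 61.5% of the 2158 region ends, of a hypoxia 2 interval at 36% and of a hypoxia 1 interval at 2.64%. Hypoxia 1 intervals sat inside the others: 1012 of 1225 (82.6%, exact 95% interval 80.4% to 84.7%) lay wholly within the overlap of hypoxia 2 and hypoxia 3.

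The stretch that all 3 lists shared was much shorter than the region. At least 1 base was called by all 3 in 1071 of 1079 regions (99.3%), with a median shared length of 156 bp (quartiles 82.5 and 287). The other 8 were held together by an interval that bridged neighbours. Width rose with fold: Spearman's rho across core regions was 0.49, 0.60 and 0.59 with the fold in hypoxia 1, 2 and 3. The 360 regions ranked highest by fold had a median width of 656 bp and shared 322 bp, and the 359 ranked lowest had 390 bp and 77 bp.

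The narrowest core region was chr2:241291510-241291726, at 217 bp, on 8, 20 and 17 reads in hypoxia 1, 2 and 3. The widest, chr5:9965-11819 at 1855 bp, lay at the very start of its chromosome, was called in all 6 lists, and had a local background of 27.4, 36.6 and 37.7 times the genome-wide value in hypoxia 1, 2 and 3. Such high background, set at 10 times the genome-wide value, was met at only 6 core regions in any hypoxia list, 5 of them with a normoxia call. The second widest, chr12:6642376-6644213 at 1838 bp, had low background and folds of 25.6, 53.4 and 74 in hypoxia 1, 2 and 3.

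**Figure D2:**
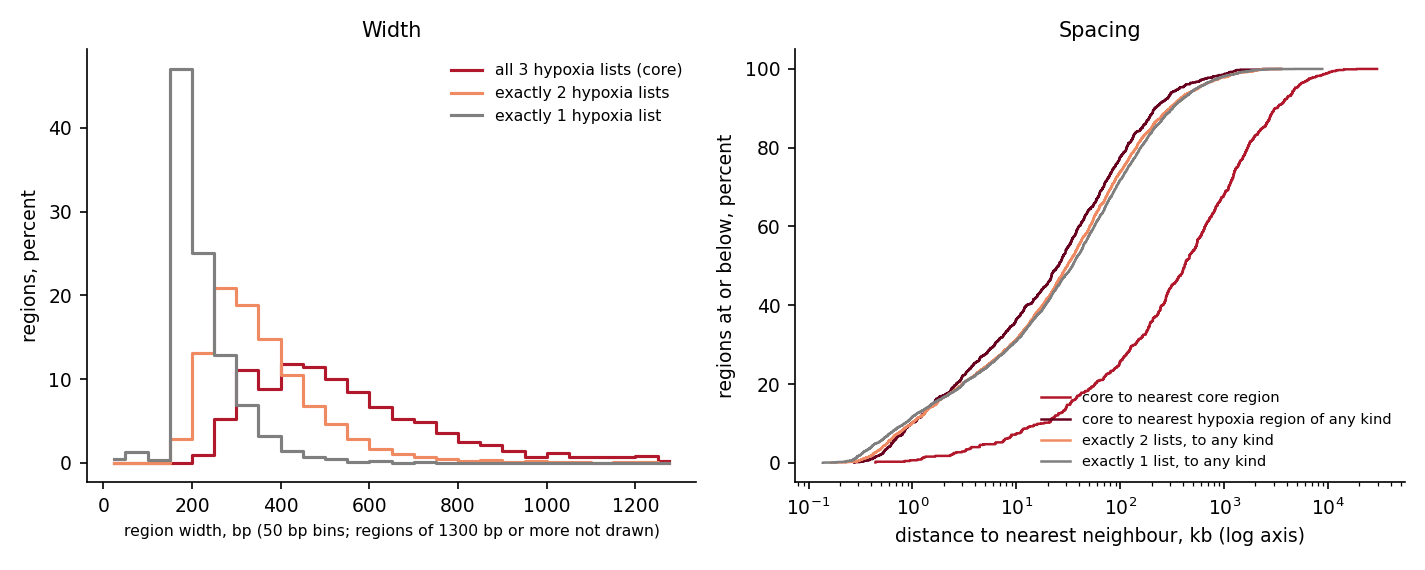
Left, percent of regions by width in 50 bp bins for regions of all 3 (core), exactly 2 and exactly 1 hypoxia list. Right, percent of regions whose nearest neighbour lies at or below a distance in kb (log axis); the median is 417 kb from a core region to the nearest core region and 25.4 kb to the nearest hypoxia region of any kind.

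Summits of the 3 hypoxia libraries fell close together in most core regions. The distance from the lowest to the highest of the 3 summits had a median of 52 bp (quartiles 32 and 83.5). It was at most 50 bp in 519 regions (48.1%, exact 95% interval 45.1% to 51.1%), at most 100 bp in 892 (82.7%, 80.3% to 84.9%) and at most 150 bp in 1014 (94%, 92.4% to 95.3%). Taking the closest combination of deposited summits, where a list had several, gave a median of 46 bp.

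Hypoxia 2 and hypoxia 3 placed their summits nearest to each other. Their distance had a median of 14 bp (quartiles 6 and 30) and was at most 20 bp in 683 regions (63.3%). From hypoxia 1 the median distance was 41 bp (19 and 71) to hypoxia 2 and 44 bp (22 and 74) to hypoxia 3. The hypoxia 1 summit was the one farther from the middle summit in 712 of 1064 regions (66.9%, exact 95% interval 64% to 69.7%). It lay to either side about evenly, at a lower coordinate than hypoxia 2 in 52.2% of regions (exact 95% interval 49.1% to 55.2%) and than hypoxia 3 in 53.2% (50.2% to 56.2%). Hypoxia 1 differs from the other lists in extension and in reads per summit, which themselves depend on extension. The part of either in this distance was not tested.

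**Figure D3:**
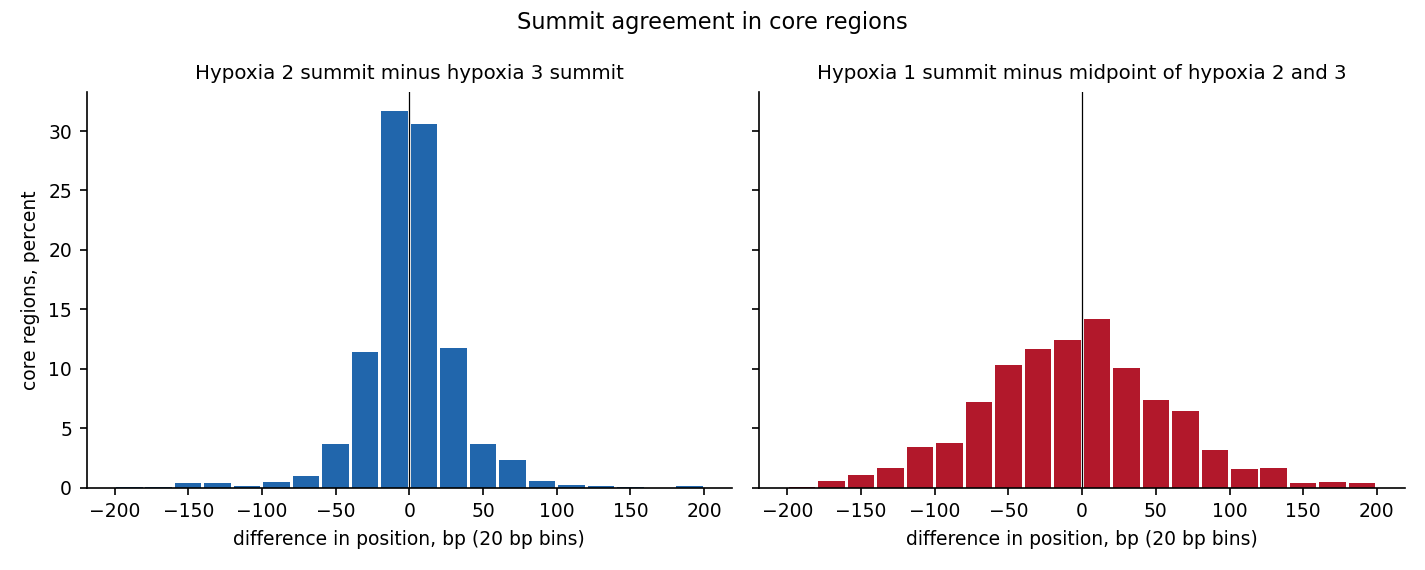
Percent of core regions by difference in summit position in 20 bp bins, for hypoxia 2 minus hypoxia 3 (left) and hypoxia 1 minus the midpoint of the hypoxia 2 and 3 summits (right); differences beyond 200 bp are not drawn. The left distribution is narrow, with 31.7% and 30.6% of regions in the bins on either side of 0, and the right one is broad, with 12.4% and 14.2% there.

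In hypoxia 1 many core regions had several summits, and these often stood on both sides of the summits of the other libraries. More than 1 hypoxia 1 summit was present in 407 core regions (37.7%, exact 95% interval 34.8% to 40.7%), against 119 (11%) for hypoxia 2 and 122 (11.3%) for hypoxia 3. In the 246 regions with exactly 2 hypoxia 1 summits, these flanked the midpoint of the hypoxia 2 and 3 summits in 193 (78.5%, 72.8% to 83.4%), with a median gap of 127 bp (quartiles 94 and 170). The mean of the 2 summits lay a median of 36 bp from that midpoint, while the summit of smaller p lay 49 bp away. In the 672 regions with a single hypoxia 1 summit, that summit lay a median of 39.5 bp from the midpoint, close to the mean of the pair. Regions with 2 summits in hypoxia 2 or hypoxia 3 had wider gaps, with medians of 326 bp (102 regions) and 365 bp (107 regions).

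Summits were closer where enrichment was higher. Hypoxia 2 and 3 summits lay a median of 9 bp apart in the 360 regions ranked highest by fold, 17 bp in the middle 360 and 23 bp in the 359 ranked lowest. The hypoxia 1 summit moved less along the same order, from a median of 37.3 bp to 42.5 and 45.5 bp from the midpoint. Several hypoxia 1 summits were found in 261 of the highest 360 regions (72.5%), 112 of the middle 360 and 34 of the lowest 359. In the 2989 regions of hypoxia 2 and hypoxia 3 without hypoxia 1, their summits lay a median of 31 bp apart (quartiles 14 and 62).

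Single regions show the range. At chr15:72522701-72523038 all 3 hypoxia summits fell on position 72522873. At chr1:67966041-67966483 they fell at 67966250, 67966249 and 67966248 in hypoxia 1, 2 and 3. The largest distance was 683 bp, at chr1:234859323-234860345, where the summits stood on 10, 22 and 25 reads. At chr3:81809952-81811114 the hypoxia 2 and 3 summits were 17 bp apart on 117 and 114 reads, while the hypoxia 1 summit lay 642 bp from that of hypoxia 2. The first of these regions had fewer reads than the core median in hypoxia 2 and 3 but not in hypoxia 1, while the other was well above it in hypoxia 2 and 3.

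Normoxia libraries had a call at few core regions, but more often there than at other hypoxia regions. A call in at least 1 normoxia list stood at 76 of 1079 core regions (7.04%, exact 95% interval 5.59% to 8.74%), against 1.19% of all regions with a hypoxia call. At regions of exactly 2 hypoxia lists it stood at 16 of 3049 (0.525%) and at those of exactly 1 at 20 of 5248 (0.381%). By library, core regions with a call numbered 28 in normoxia 1 (2.59%, against 0.459% of all hypoxia regions), 23 in normoxia 2 (2.13%, against 0.267%) and 73 in normoxia 3 (6.77%, against 0.992%). All 3 normoxia lists had a call at 20 core regions, where 0.213% of all hypoxia regions had one. These 20 are the only regions with a hypoxia call that all 3 normoxia lists called. Without normoxia 3, 2.87% of core regions had a normoxia call. The weakest call of a normoxia list had a −log10 p of 6.18 to 7.15, against 4.23 to 5.28 in hypoxia, so a missing call does not show that HIF-1α was absent.

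Seen from the normoxia lists, core regions held 39 of the 70 normoxia 1 intervals (55.7%, exact 95% interval 43.3% to 67.6%), 28 of the 32 normoxia 2 intervals (87.5%, 71% to 96.5%) and 86 of the 109 normoxia 3 intervals (78.9%, 70% to 86.1%). Most normoxia 1 intervals outside the core were of high background, with a median of 41.5 times the genome-wide value against 1.53 times in the core. Core regions with a normoxia call were wider than those without, with medians of 667 and 494 bp, and shared 413 against 146 bp between the hypoxia lists. Their median fold was 13.3 against 6.55 in hypoxia 1, 27.8 against 14.2 in hypoxia 2 and 30.5 against 16.6 in hypoxia 3.

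Normoxia summits fell near the hypoxia summits. The median distance to the hypoxia 1 summit, from a list of like extension, was 62.5 bp for normoxia 1 (28 regions), 59 bp for normoxia 2 (23) and 34 bp for normoxia 3 (73). To the midpoint of hypoxia 2 and 3 it was 36.3, 40 and 52.5 bp. Within 50 bp of the hypoxia 1 summit lay 13 of 28, 9 of 23 and 45 of 73 of them.

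Intervals inside core regions were longest in hypoxia 2 and 3. The median was 124, 410 and 459 bp in hypoxia 1, 2 and 3, a mean of 331 ± 181 (SD, n = 3), and 102, 117 and 122 bp in normoxia 1, 2 and 3, a mean of 114 ± 10.2 (SD, n = 3). The lowest hypoxia value exceeded the highest normoxia value, with a difference of 218 bp between the means. No test is given, because every hypoxia list had to have an interval in these regions and a normoxia list did not. Hypoxia 1 lay just above normoxia 3, so the gap rested on hypoxia 2 and hypoxia 3, the libraries of long extension, and extension and oxygen level cannot be told apart in them. In the core regions that a normoxia list called, its longest interval had a median of 126, 153 and 138 bp in normoxia 1, 2 and 3, and the longest hypoxia 1 interval of the same regions 426, 437 and 429 bp. Hypoxia 1 had the longer interval at 27 of 28, 21 of 23 and 59 of 73 of them.

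Regions whose fold ranked much higher in hypoxia 1 than in hypoxia 2 and 3 more often had a normoxia call. With a mark of 500 places, chosen after the values were seen, a normoxia call stood at 13 of 35 regions that ranked at least 500 places higher in hypoxia 1 (37.1%, exact 95% interval 21.5% to 55.1%). It stood at 63 of 1011 within 500 places (6.23%, 4.82% to 7.9%) and at 0 of 33 that ranked at least 500 places lower (0%, up to 10.6%). With a mark of 300 places the counts were 26 of 127, 47 of 824 and 3 of 128. Either split depends on hypoxia 1 fold itself. With the mark of 500 its median was 8.54 in the 35 regions, 6.78 within 500 places and 4.47 in the 33. Normoxia calls also rose with mean fold rank, from 3.62% of the 359 regions ranked lowest to 12.2% of the 360 ranked highest. The part of hypoxia 1 fold alone was not tested. Neither split was tested, since regions are not replicates and hypoxia fold chose the members.

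**Figure D4:**
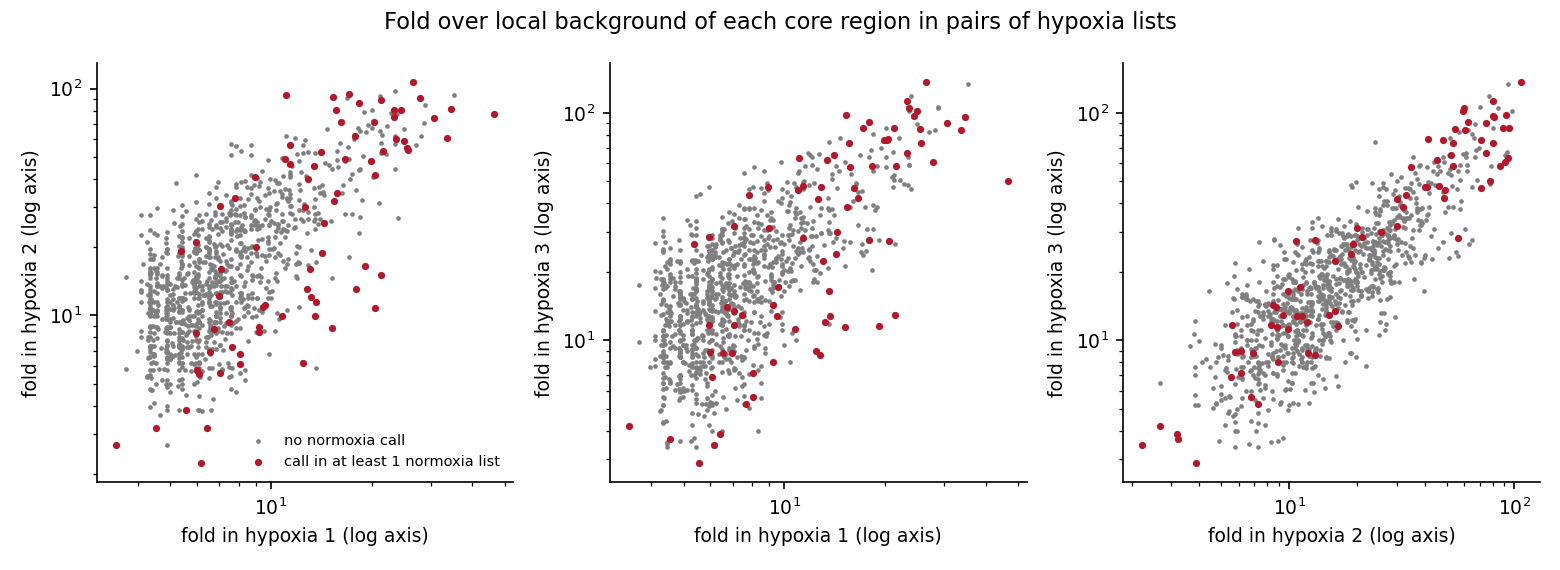
Fold over local background of each of the 1079 core regions in hypoxia 1 against 2, hypoxia 1 against 3 and hypoxia 2 against 3 (log axes), with the 76 regions that have a normoxia call in red. Red points gather at the strong end of all 3 panels and, in both panels with hypoxia 1, also below the cloud at 10 to 20 fold in hypoxia 1.

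Of the 20 core regions called in all 6 libraries, most ranked higher in hypoxia 1. In 12 of them the hypoxia 1 rank was at least 300 places higher. Their fold ran from 7.47 to 21.4 in hypoxia 1 (median 13.6), from 8.83 to 16.4 in hypoxia 2 (median 11.2) and from 8.63 to 27.6 in hypoxia 3 (median 12.9). Within each list, the median of all core intervals was 6.51 in hypoxia 1, 14.1 in hypoxia 2 and 16.8 in hypoxia 3. In the other 8 the hypoxia 1, 2 and 3 folds had medians of 15.7, 66.6 and 56.5, with a wide range in hypoxia 2, from 3.20 at the start of chromosome 5 to 91.4. Among the 12 was chr19:18334872-18335785, where the normoxia folds were 5.75, 6.62 and 10.2 and the hypoxia folds 21.4, 15.1 and 12.9. Among the 8 was chr5:178862880-178864011, where the normoxia folds were 4.86, 5.28 and 13.9 and the hypoxia folds 23.3, 80.2 and 112. Between these named regions the folds were close in the normoxia lists and in hypoxia 1 and far apart in hypoxia 2 and hypoxia 3. Over the 12, normoxia 1, 2 and 3 folds had medians of 7.48, 7.80 and 9.69. Over the 8 the medians were 7.28, 10.9 and 12.5, with normoxia 3 folds up to 31.9, against 17.7 in the 12.

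Reads of the 4 libraries with a short extension overlapped between the 12 and the 8 regions. Corrected for depth, the ratio of hypoxia 1 to normoxia 1 summit reads had a median of 2.2 in the 12 regions (0.879 to 4.19) and 2.22 in the other 8 (1.18 to 5.31). Against normoxia 2 the medians were 2.17 and 1.63, and against normoxia 3 they were 1.24 and 1.09, with overlapping ranges throughout. The 12 regions also included chr16:14013502-14014224, chr11:62369103-62369637 and chr19:7098749-7099441, which ranked 730, 630 and 594 places higher in hypoxia 1. These 3 and the chromosome 19 region above were picked after their values were seen. As hypoxia 2 and 3 are both hypoxic and of long extension, the part of extension in this split was not tested.

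Core regions lay far from one another. The gap between consecutive core summits had a median of 1039 kb (quartiles 262 and 3258) and a mean of 2711 kb, so short gaps were many and long gaps few. The nearest core neighbour lay at a median of 417 kb (98 and 1341). It was within 1 kb for 6 regions, within 10 kb for 78 (7.23%, exact 95% interval 5.76% to 8.94%), within 100 kb for 276 (25.6%, 23% to 28.3%) and within 1000 kb for 735 (68.1%, 65.2% to 70.9%). Of 1 Mb bins, 730 held a core region, 506 of these held a single one, and no bin held more than 7.

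Other hypoxia regions stood much nearer, as they were more numerous. Another hypoxia region of any kind lay within 10 kb of 391 core regions (36.2%, exact 95% interval 33.4% to 39.2%), against 31.3% (29.6% to 32.9%) of regions of exactly 2 hypoxia lists and 31% (29.8% to 32.3%) of those of exactly 1. Within 1 kb the shares were 10%, 10.1% and 11.7%. The nearest hypoxia region was itself core for 122 core regions (11.3%, 9.48% to 13.3%), for 12% of regions of exactly 2 lists and for 12.1% of those of exactly 1, all near the 11.5% that core regions make up. No test was run on these shares.

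Some core regions lay in small groups. No expected number of such groups was computed. Steps of at most 10 kb linked 78 core regions into 37 groups, none larger than 3. The 4 groups of 3 spanned chr1:162851567-162860220, chr6:33806737-33816604, chr6:44041105-44051251 and chr11:1999864-2012555. The last pair of groups held the regions ranked first and second by fold. By distance between the median hypoxia summits, the closest pair lay 440 bp apart, at chr6:6007689-6008477 and chr6:6008521-6009073. The first of them had 11, 41 and 60 reads in hypoxia 1, 2 and 3 and the second 5, 15 and 12, with no base of the second called by all 3 lists. The next pair, at chr16:29188665-29189001 and chr16:29189055-29189906, was more even, with 10, 24 and 32 reads against 16, 37 and 49.

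The longest stretch without a core region ran for 47.3 Mb on the X chromosome, between summits at 106916373 and 154235306, and held 38 other hypoxia regions. The next ran for 35.2 Mb of chromosome 1, with 62 other hypoxia regions, and for 32.8 Mb of chromosome 6, with 28. These lengths are plain differences between summit positions. Sequence on which reads cannot be placed was not taken out, so a long gap need not be sequence open to a call. The most isolated core region, chrX:106916214-106916573, lay 29.6 Mb from its nearest core neighbour and had hypoxia folds of 6.07, 9.39 and 18.6.

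Core regions were found on every chromosome used, in numbers that followed gene number. Chromosome 1 held 118, chromosome 2 held 87, chromosome 11 held 80 and chromosome 17 held 79, while chromosome 18 held 6. Across the 23 chromosomes Spearman's rho between core regions and protein-coding genes in the RefSeq table of GRCh38.p14 was 0.87, and it was 0.81 for all hypoxia regions. Longer chromosomes hold more of both, so this is a description without a p. Per 100 coding genes there were 5.4 core regions over all, 6.94 on chromosome 2 and 6.76 on chromosome 17, but 2.22 on chromosome 18, 2.36 on the X chromosome and 4 on chromosome 19. Chromosome 19, with the most core regions per length (9.82 per 10 Mb), thus had fewer per gene than the genome as a whole.

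The share of hypoxia regions that were core ran from 6.85% on chromosome 10 to 15.7% on the X chromosome. Its exact 95% interval held the overall 11.5% on 20 of 23 chromosomes, the X chromosome (9.89% to 23.3%) among them. On chromosomes with few hypoxia regions the interval was wide, as on chromosome 18 (4.03% to 21.9%, 56 regions). The interval lay below 11.5% on chromosome 10, with 43 core among 628 hypoxia regions (6.85%, 5% to 9.11%). It lay above 11.5% on chromosome 6 (61 of 404, 15.1%, 11.8% to 19%) and chromosome 17 (79 of 521, 15.2%, 12.2% to 18.5%). Intervals are not adjusted for the 23 chromosomes compared. Chromosome 10 held 4.53% of the hypoxia 1 intervals and 5.03% of the hypoxia 2 intervals, but 7.30% of the hypoxia 3 intervals. In the window from 14 to 18 Mb of chromosome 2, around the amplified MYCN locus, 2 of 89 hypoxia regions were core. All of chromosome 2 held 838 hypoxia regions, 87 of them core, so the window was crowded with hypoxia regions. The part of copy number in this count was not tested.

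**Figure D5:**
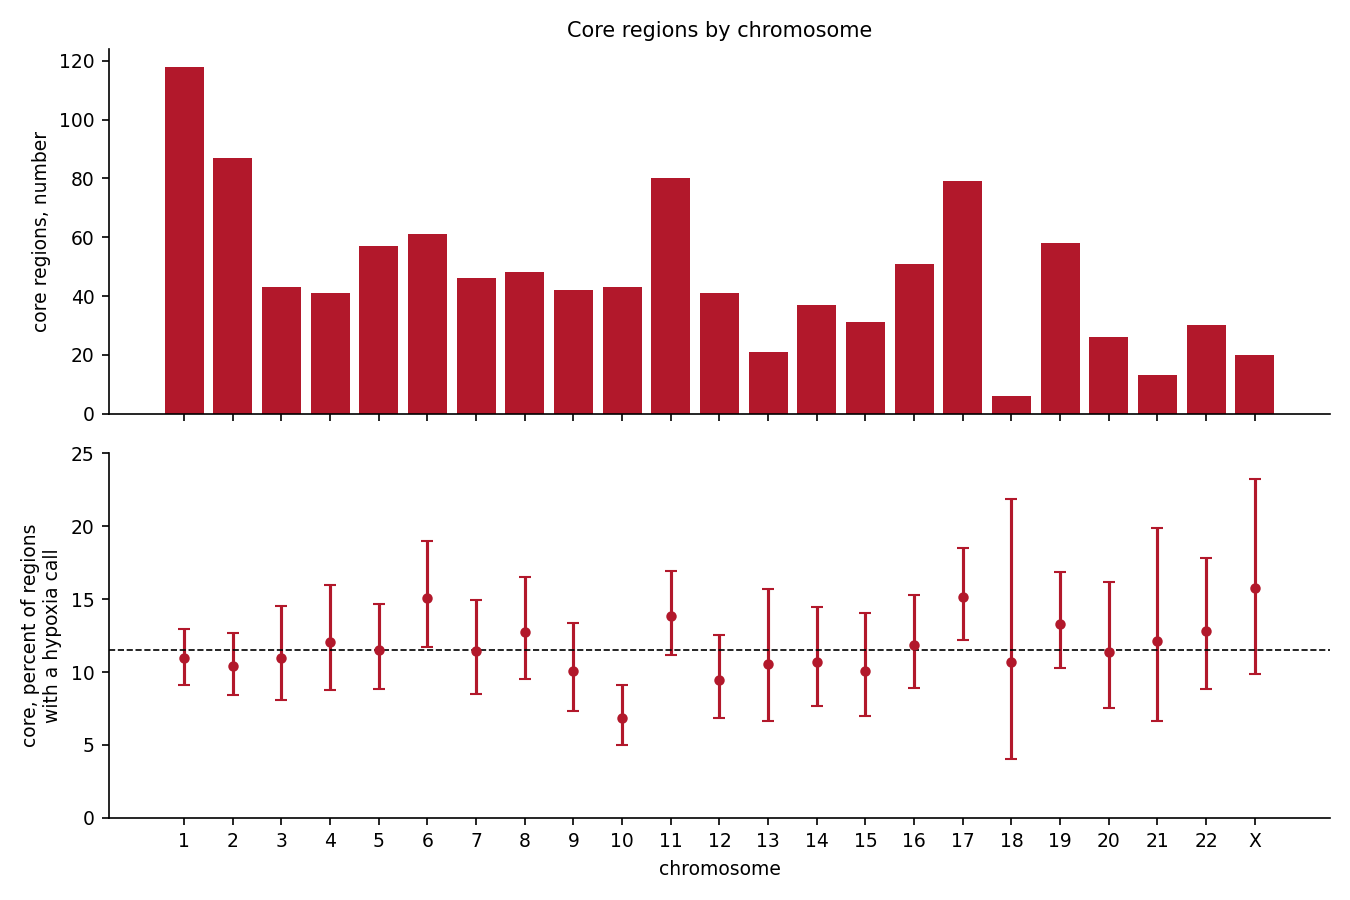
Number of core regions (top, bars) and core regions as a percent of regions with a hypoxia call (bottom, points with exact 95% intervals; the dashed line is the 11.5% over all) for chromosomes 1 to 22 and X. The whole interval lies below the line on chromosome 10 and above it on chromosomes 6 and 17.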

How the data were processed

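HIF-1α ChIP-seq peak lists of 3 hypoxia and 3 normoxia libraries were used, 1 list per library. BWA 0.7.17, MACS2 and hg19 are named in the submitters' processing notes; the MACS2 version and settings are not given in the sources used. The deposited fold is a ratio, summit reads plus 1 over local background plus 1. The −log10 p and −log10 q were deposited as the peak caller wrote them. The deposited score is −log10 q times 10 without decimals, in all 16463 lines.

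Lines of 1 interval were merged, keeping the summit of smallest p. Reads and local background at each summit were recovered from fold and p within 0.001 of −log10 p, with whole reads at all 16463 lines; the code was tested on simulated data. Depth is the smallest local background over the shortest interval. Values were computed with Python 3.11.15 and scipy 1.17.1. A planned permutation test of interval length between oxygen levels is not reported, since the hypoxia calls chose the members. Named regions followed a written rule of extremes (fold rank, width, summit distance, spacing, threshold, calls in all 6 lists), with exceptions said in the text. Members and lists were chosen with earlier results of these data known. Alternatives were stricter thresholds, other overlaps, left-out libraries and a replicate block. Same-numbered libraries are not treated as pairs. Motif, promoter and gene list comparisons were not run, since no hg19 sequence or annotation was used here; gene numbers per chromosome come from GRCh38.p14, none of whose coordinates were used.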

Additional observations from a re-analysis of the deposited data

Results flagged for a closer look

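On contigs outside the chromosomes used and the Y chromosome, 8 regions were called in all 3 hypoxia lists, out of 83 with a hypoxia call. They drew attention because they lie outside the measured set. On the chromosomes used, 11.5% of regions with a hypoxia call were core, so 8 of 83 is no larger a share. No contig region was called in all 3 normoxia lists, but only 0.213% of hypoxia regions on the chromosomes used were. Of the 8, 1 had a normoxia call and 0 had high local background. With 3 libraries a group, no outlier test was run.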

How the results depend on the processing

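The 1079 core regions became 603 under a stricter q (−log10 q from 5 up), 644 under a stricter fold (from 6 up) and 269 where intervals had to overlap reciprocally by 50%, all smaller by construction. Leaving out 1 hypoxia library gave 1090 to 4067. Median width ran from 365 to 573 bp over its 6 alternatives. The median summit distance was 26 to 45 bp without 1 hypoxia library, where 2 summits replace 3. The 7.23% with a core neighbour within 10 kb became 5.64% under the stricter q and 7.73% to 17.8% without 1 hypoxia library, and 4.63% and 18.7% had one within 5 and 50 kb. The 7.04% with a normoxia call became 11.6% under the stricter q, 9.78% under the stricter fold and 2.16% to 7.1% without 1 library, lowest without hypoxia 1. Where construction does not give it, the cause was not tested. The interval length difference, given without a test, was 154 to 321 bp without 1 library. In the 20 regions of all 6 lists it was 345 bp, and the normoxia 3 median (368 bp) lay near that of hypoxia 1 (413 bp), with normoxia 1 and 2 at 110 and 123 bp. This alternative was chosen after seeing the data, as was leaving out high background for all but the region count. With a replicate block the difference was 218 bp, equal by construction. Same-numbered libraries correlated at 0.0168 to 0.0949 in their deviations, and differently numbered ones at -0.0691 to 0.0172. As 1003 core regions had no normoxia call, these values cannot decide whether the numbers mark pairs. The numbers were not taken as pairs. Alternatives on promoters, motifs and gene lists were not run.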
